A study of Homo sapiens with 9 samples.

Results

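The comparison described here set A20-RE cells against wild-type (WT) HCT116 cells and covered 10950 protein-coding genes of the 19951 protein-coding genes and 58735 genes in the table. A gene was included when its mean FPKM over the 6 libraries of these groups was at least 1 (FPKM counts fragments per kilobase of a gene and adjusts them for the size of the library). HCT116 is an established human colorectal carcinoma line. The study removed A20 from these cells and put it back, and sequenced the RNA of 3 libraries for each of 3 groups. WT cells carry the genotype A20-WT in the labels. The A20-RE cells, which the labels call A20-OE, are A20-knockout cells in which A20 was restored, and they therefore carry both the knockout and the restored A20. Per the study's methods, the knockout was made with single-guide RNAs in the lentiviral LentiCRISPR v2 backbone, and the A20 overexpression vector they name is pCMV-3xFlag-A20. Which vector restored A20 in the sequenced cells, whether the cells were 1 clone or a pool, and whether WT cells received an empty vector, are not given in the sources used here. Neither are separate cultures for the replicates, so the p-values measure only the spread between these libraries, which may be technical. WT and A20-RE differ in the knockout and in the restored A20 at the same time, and they may also differ in vector and selection. These cannot be told apart in this comparison.

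A20 is the product of TNFAIP3. It is a ubiquitin-editing enzyme with a deubiquitinase domain and a zinc finger region, and it is best known as a feedback inhibitor of NF-kB signaling downstream of tumor necrosis factor and Toll-like receptors in epithelial and immune cells. Several of the gene groups below have well-known regulators. Genes of DNA replication are controlled largely by E2F transcription factors, genes of mitosis by the DREAM and MuvB complexes at the cell cycle genes homology region (CHR) together with NF-Y at CCAAT boxes, and genes induced by low oxygen by hypoxia-inducible factors (HIF) at hypoxia response elements (HRE).

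Reads recovered from the FPKM ranged from 23406222 to 24963691 per library. The correlation of log2 values over genes was 0.959 to 0.992 between WT libraries, 0.988 to 0.994 between A20-RE libraries, and 0.891 to 0.925 between a WT and an A20-RE library. The share of reads on genes of the mitochondrial genome was 8.78% ± 1.3 in WT and 12.72% ± 1.07 in A20-RE (SD, n = 3). Of 14 markers of colorectal epithelial cells 10 were among the 10950 genes, and of 24 markers of blood, stromal, and endothelial cells only COL1A1 was, at 5.32 ± 0.668 FPKM in WT and 11.7 ± 0.653 FPKM in A20-RE (SD, n = 3). In RNA from a culture, fewer cells of a kind and less RNA per cell cannot be told apart.

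TNFAIP3 (chr6:137867188-137883312, plus strand, GRCh38) was at 0.869, 0.8, and 0.736 FPKM in the WT libraries and at 58.7, 66.5, and 56.5 FPKM in the A20-RE libraries. The lowest A20-RE library lay far above the highest WT library, and the ratio of the means was 75.6. The log2 fold change was 6.07 with a 95% confidence interval of 5.55 to 6.59 (adjusted p = 2e-06, limma with Benjamini-Hochberg adjustment, as for all adjusted p below). In the libraries labelled A20-KO it was at 1.93, 2.16, and 1.04 FPKM, which is not below WT. The reads on the gene therefore do not check the knockout label. In these gene totals, transcripts of a restoring construct cannot be told apart from the endogenous mRNA.

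NDRG1 (chr8:133237171-133302022, minus strand), a stress-responsive gene that low oxygen induces, was at 23.3, 25.4, and 27.6 FPKM in WT and at 291, 272, and 296 FPKM in A20-RE, an 11.2-fold rise (log2 fold change 3.49, SE 0.1, adjusted p = 3.8e-07). CCNB1 (chr5:69167010-69178245, plus strand), the cyclin that drives entry into mitosis, fell 2.76-fold from 104, 89.3, and 92 FPKM to 34.8, 31.4, and 37.2 FPKM (log2 fold change -1.46, SE 0.1, adjusted p = 1.8e-05). MKI67 (chr10:128096659-128126385, minus strand), the proliferation marker Ki-67, fell 2.09-fold from 39.2, 40.4, and 40.9 FPKM to 17.7, 22.2, and 17.6 FPKM (log2 fold change -1.07, SE 0.12, adjusted p = 0.00021). For each of these genes the 3 libraries of one group lay apart from the 3 of the other, with the A20-RE libraries high for NDRG1 and low for CCNB1 and MKI67. The exact two-sided permutation test of 3 libraries against 3 gave p = 0.1, the smallest it can give, for TNFAIP3 and for each of these genes. The same 3 WT libraries also serve the comparison of the libraries labelled A20-KO with WT, where the log2 fold changes were 1.32 for NDRG1, -0.75 for CCNB1, and -0.69 for MKI67.

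**Figure D1:**
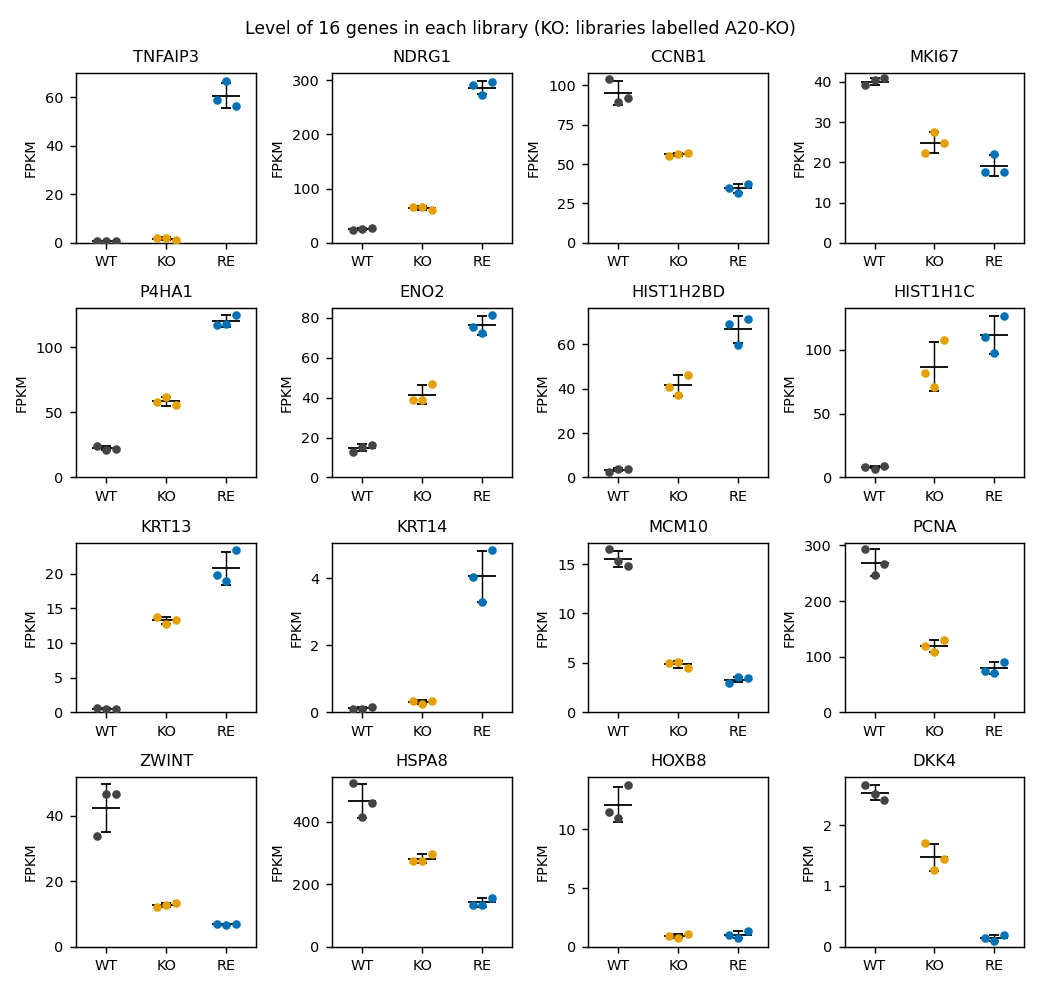
FPKM of 16 genes in the 9 libraries, 1 panel per gene, with points for single libraries and bars for the mean ± SD of each group (n = 3). For each of TNFAIP3, NDRG1, CCNB1, and MKI67 the A20-RE points do not overlap with the WT points, and the libraries labelled A20-KO are shown for reference.

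Across the 10950 genes, 643 were called higher and 598 called lower in A20-RE, where a call needed an adjusted p under 0.05 together with a change of more than 1 in either direction on the log2(FPKM + 0.1) scale. These are 5.87% and 5.46% of the genes, against 7.68% called higher and 4.21% called lower among all 21636 genes tested, which include noncoding genes and genes of low level. With no limit on the fold change, 2026 passed the test in the higher direction and 2850 in the lower direction, which are 18.5% and 26% of the genes against 15.7% and 15.4% of all genes tested. The remaining 6074 did not pass. A gene is said to have risen or fallen below only where it passed this test. Counts of rises and falls in the lists below are to be read against 18.5% and 26%. The libraries of the groups did not overlap for 1240 of the 1241 called genes (99.9%), against 2547 of 2571 called among all genes tested (99.1%). Without regard to a call, 24.7% of the 10950 genes lay apart with A20-RE higher and 34.1% with A20-RE lower. Over all genes tested these shares were 23.6% and 21.8%. A call and a lack of overlap rest on the same libraries, so neither checks the other. Beyond 4-fold, 97 genes rose and 23 fell. Of the 4876 genes that passed, 1522 changed by less than 1.5-fold. The median log2 fold change of the 10950 genes was -0.08, with the 5th to 95th percentiles at -1.03 and 1.07.

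The limit of 1 FPKM on the mean of both groups admits some genes through the group in which they are high. A total of 269 genes had a mean under 1 FPKM in WT, of which 161 were called higher, and 171 had a mean under 1 FPKM in A20-RE, of which 61 were called lower. Among the 10510 genes at 1 FPKM or more in both groups 482 were called higher and 537 called lower, which turns the order of the counts around. Genes called higher had a median of 2.56 FPKM in WT and those called lower a median of 12.1 FPKM. The median GC content was 57.3% for genes called higher, 46.8% for genes called lower, and 49.1% for all 10950, and with a correction for GC content 563 genes were called higher and 616 called lower.

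**Figure D2:**
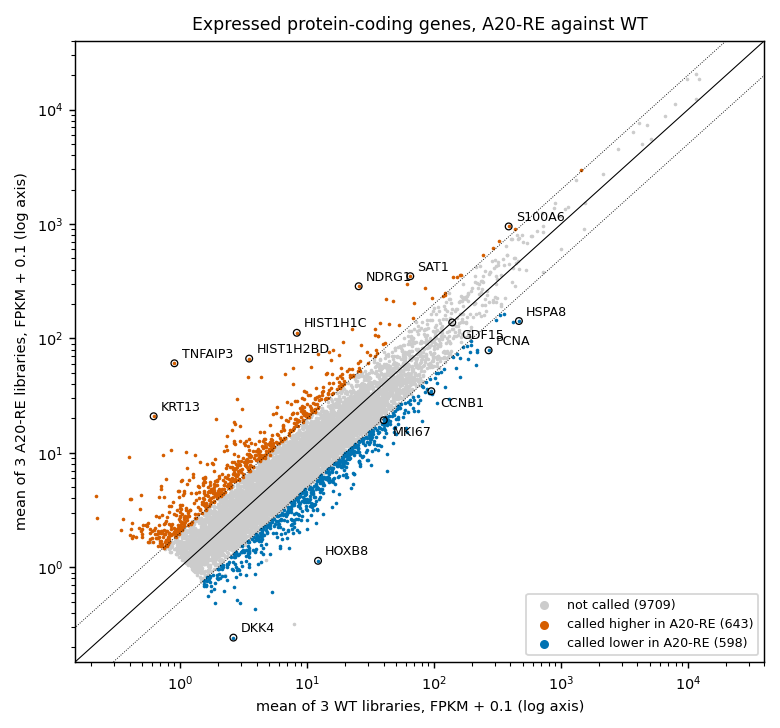
Mean FPKM + 0.1 of each of the 10950 genes in WT (x axis) and A20-RE (y axis), n = 3 per group, on log axes, with 643 genes called higher, 598 called lower, and the others in separate colours. Dotted lines mark 2-fold differences, and TNFAIP3 lies farthest above them.

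The largest rise after TNFAIP3 was that of KRT13 (chr17:41500981-41505705, minus strand), a keratin of stratified epithelia, which was at 0.595, 0.481, and 0.481 FPKM in WT and at 19.9, 19, and 23.4 FPKM in A20-RE (log2 fold change 5.08, adjusted p = 1.7e-07). LY6D, a surface protein of squamous epithelial cells, rose from a mean of 0.293 to 9.14 FPKM (log2 fold change 4.57). KRT14 (chr17:41582279-41586921, minus strand), the basal-cell keratin, was at 6, 5, and 9 reads in WT and 216, 187, and 253 reads in A20-RE, which gave a log2 fold change of 4.26. KRT13, LY6D, and KRT14 were under 1 FPKM in WT and entered through their level in A20-RE. The 10 largest rises also held HIST1H2BD, HIST1H1C, CLIC3 (an intracellular chloride channel protein, 3.3 to 45.5 FPKM), CYP4F3 and CYP4F12 (cytochrome P450 enzymes that oxidise fatty acids and leukotrienes, with log2 fold changes of 3.73 and 3.66), and RAPGEF3 (a cAMP-activated exchange factor for RAP proteins, 3.62). Among the falls DKK4 (chr8:42374068-42377232, minus strand), a secreted Wnt antagonist that is itself a Wnt target, came first, with 59, 56, and 54 reads in WT and 3, 2, and 4 reads in A20-RE (fitted log2 fold change -3.46, adjusted p = 1.1e-05). HOXB8 (chr17:48611377-48614939, minus strand), a homeobox factor of body-axis patterning, was at 11.5, 11, and 13.8 FPKM in WT and at 1.02, 0.747, and 1.34 FPKM in A20-RE (log2 fold change -3.45). HOXB4 of the same gene cluster fell by 3.18 on the log2 scale. DPEP1, a membrane dipeptidase, fell from 5.16 to 0.507 FPKM and entered through its level in WT. The kinetochore protein genes ZWINT (42.4 to 6.83 FPKM) and CENPM (16.7 to 3.55 FPKM) and the gene DDIAS, an apoptosis suppressor (7.15 to 1.39 FPKM), were also among the 10 largest falls, with PODXL2, B3GALNT1, and ENC1.

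Genes of DNA replication and the G1/S transition fell almost throughout. Of 44 listed genes 43 were among the 10950, and 42 of them fell, 38 past 2-fold, with a median log2 fold change of -1.53 and a range from -2.2 to 0.01, against a median of -0.08 and a share of 26% passing lower for all 10950 genes. With genes under 1 FPKM in either group left out, 41 of 42 fell, 37 past 2-fold. The exception was CCND1, the G1 cyclin that growth factors induce, at a log2 fold change of 0.01. MCM10, which loads DNA polymerase alpha at origins, was at 16.5, 15.3, and 14.8 FPKM in WT and 2.96, 3.52, and 3.42 FPKM in A20-RE (log2 fold change -2.2, SE 0.1, adjusted p = 4.8e-06). The A20-RE libraries all lay below the WT libraries, with means 4.7-fold apart. GINS2 and CDC45, subunits of the replicative helicase with the MCM ring, fell by 2.17 and 2.04 on the log2 scale, and MCM5 of that ring fell by 2.01. PCNA, the sliding clamp of the replicative polymerases, was at 294, 246, and 267 FPKM in WT and at 74.8, 70.4, and 91 FPKM in A20-RE (log2 fold change -1.78, adjusted p = 3e-05), so that the groups were again apart.

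Genes of mitosis and the kinetochore fell by less. Of 38 listed genes 37 were included and 35 fell, 22 past 2-fold, with a median log2 fold change of -1.07 and a range from -1.69 to -0.39. The genes that did not pass were INCENP, a member of the chromosomal passenger complex, at -0.52 and CDC25C, a phosphatase that activates CDK1, at -0.39. CCNA2, the cyclin of S phase and G2, was at 56, 46.1, and 44 FPKM in WT and 14.5, 14.6, and 15.9 FPKM in A20-RE (log2 fold change -1.69, adjusted p = 1.7e-05). SPC25, a subunit of the NDC80 kinetochore complex, fell from 16.4 to 5.24 FPKM, and AURKA, the centrosomal mitotic kinase, from 28.9 to 10.1 FPKM. CDC20, which activates the anaphase-promoting complex, stood near the 2-fold limit at a log2 fold change of -1.0 (adjusted p = 0.0015).

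Genes of homologous recombination, the Fanconi pathway, and mismatch repair made up a further group, with 27 of 30 listed genes included, 22 that fell, 18 of them past 2-fold, and a median log2 fold change of -1.27. Of these 27, 3 were under 1 FPKM in A20-RE and entered through their level in WT. Among the 24 at 1 FPKM or more in both groups 19 fell, 15 past 2-fold, with a median of -1.26. EXO1, the exonuclease of mismatch repair and end resection, was at 15.3, 12.7, and 11.7 FPKM in WT and 2.71, 2.92, and 2.81 FPKM in A20-RE (log2 fold change -2.19, adjusted p = 5.9e-06). BLM, the helicase that dissolves recombination intermediates, fell by 1.79 and BRCA1 by 1.74 on the log2 scale. RAD51C fell from 10.8 to 3.28 FPKM. The members that did not pass were FANCL, PALB2, PMS2, RAD52, and MRE11.

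The promoters of these groups are shown because the replication and mitosis genes differed in the short motifs they held. RefSeq promoter windows of GRCh38.p14, from 250 bases before to 50 bases after the start, were matched to 9008 of the 10950 genes, to 37 of the 43 replication genes, 32 of the 37 mitosis genes, 25 of the 27 repair genes, and 21 of the 25 hypoxia genes. The letters searched on both strands were TTTCCCGC, TTTGGCGC, TTTCGCGC, and TTTGCCGC for E2F, TTTGAA and TTCGAA for the CHR, CCAAT for the CCAAT box, and ACGTG and GCGTG for the HRE. The stretches below are examples from replication genes with large falls and an E2F motif before the start, and are not a full ranking. They are written 5′ to 3′ along the gene's strand, with the motif in capitals as it reads on that strand, so that GCGGGAAA is TTTCCCGC and GCGCCAAA is TTTGGCGC on the other strand.
GINS2, chr16:85688955-85689015, minus strand: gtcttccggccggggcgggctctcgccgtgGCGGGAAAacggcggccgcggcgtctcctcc
MCM3, chr6:52284879-52284946, minus strand: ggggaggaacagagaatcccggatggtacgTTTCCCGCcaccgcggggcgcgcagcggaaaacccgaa
TYMS, chr18:657584-657651, plus strand: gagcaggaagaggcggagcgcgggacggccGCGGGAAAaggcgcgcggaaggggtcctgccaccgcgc
POLA1, chrX:24693751-24693818, plus strand: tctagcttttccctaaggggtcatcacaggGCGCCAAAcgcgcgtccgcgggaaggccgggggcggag

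The next stretches come from the mitosis genes with the largest falls among those with both a CHR motif and a CCAAT box before the start. Capitals mark both motifs, and ATTGG is CCAAT on the other strand. In CDCA8 a CHR motif and a CCAAT box share letters and form 1 run of capitals.
SPC25, chr2:168890452-168890680, minus strand: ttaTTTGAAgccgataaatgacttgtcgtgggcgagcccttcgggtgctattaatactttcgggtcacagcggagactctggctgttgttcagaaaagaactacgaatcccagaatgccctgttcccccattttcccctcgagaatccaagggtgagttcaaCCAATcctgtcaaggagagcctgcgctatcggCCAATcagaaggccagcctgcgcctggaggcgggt
PLK1, chr16:23678786-23678888, plus strand: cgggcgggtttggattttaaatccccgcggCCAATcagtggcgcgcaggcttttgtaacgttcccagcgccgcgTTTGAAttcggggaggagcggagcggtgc
CDK1, chr10:60778140-60778215, plus strand: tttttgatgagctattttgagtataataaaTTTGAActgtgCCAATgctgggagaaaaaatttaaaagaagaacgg
CDCA8, chr1:37692371-37692515, plus strand: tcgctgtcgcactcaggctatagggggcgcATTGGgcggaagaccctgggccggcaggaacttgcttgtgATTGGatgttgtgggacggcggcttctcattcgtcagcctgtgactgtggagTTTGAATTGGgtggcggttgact

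An E2F motif was present in 19 of 37 replication promoters (51.4%), 6 of 25 repair promoters (24.0%), and 2 of 32 mitosis promoters (6.25%), against 5.56% of the 9008 matched genes and 3.33% of all 27305 promoters in the table. A CHR motif was present in 23 of 32 mitosis promoters (71.9%), 2 of 37 replication promoters (5.41%), and 1 of 25 repair promoters (4.0%), against 10.4% of the matched genes and 16.6% of all promoters. CCAAT boxes were in 25 of 32 mitosis promoters (78.1%), 59.5% of replication promoters, and 36.8% of the matched genes. The share was higher in other lists, at 90.9% for histones, 87.0% for endoplasmic reticulum chaperones, and 83.3% for cholesterol genes. The CCAAT box therefore does not set the mitosis list apart. Over the 492 matched genes of the 598 called lower, 79 held an E2F motif (16.1%) and 112 a CHR motif (22.8%). Only 477 of the 643 genes called higher had a matched promoter, which is under 80%, so no share is given for them. These shares describe letters in a window of 300 bases, and draw nothing on whether a factor was bound.

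Histone genes rose while the other cell division groups fell. Of 71 listed genes 12 were included. Among the 8 that were at 1 FPKM or more in both groups 6 rose, each past 2-fold, and none fell, with a median log2 fold change of 1.85. The other 4 were under 1 FPKM in WT, entered through their level in A20-RE, and all rose. Replication-dependent histones are made in S phase from mRNAs that mostly lack a poly(A) tail, and the methods describe poly(A) selection while the labels name total RNA. HIST1H2BD (chr6:26158146-26171349, plus strand) was at 2.68, 3.63, and 3.9 FPKM in WT and 69, 59.6, and 71.3 FPKM in A20-RE (log2 fold change 4.26, adjusted p = 1.5e-06). HIST1H1C (chr6:26055787-26056428, minus strand), the linker histone H1.2, was at 8.47, 6.92, and 9.22 FPKM in WT and 110, 97.9, and 127 FPKM in A20-RE (log2 fold change 3.75, adjusted p = 4.7e-06). The groups were far apart for both genes. HIST1H2AC rose from 1.83 to 19.8 FPKM. HIST2H2AC at -0.89 and HIST1H4K at -0.38 did not pass. How poly(A) selection enters these values was not tested, and reads of near-identical histone genes may be shared between copies.

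Genes induced by hypoxia rose. Of 27 listed genes 25 were included and 20 rose, 12 past 2-fold, and none fell, with a median log2 fold change of 0.92, against 18.5% passing higher for all 10950 genes. With genes under 1 FPKM in either group left out, 19 of 24 rose, 11 past 2-fold. Oxygen is not among the conditions in the labels. ANGPTL4, a secreted inhibitor of lipoprotein lipase, was at 9.46, 12.3, and 14.3 FPKM in WT and 70.9, 64.2, and 82.8 FPKM in A20-RE (log2 fold change 2.6, adjusted p = 2.1e-05). P4HA1, the catalytic subunit of collagen prolyl hydroxylase, was at 24.5, 21.2, and 21.7 FPKM in WT and 117, 118, and 125 FPKM in A20-RE (log2 fold change 2.42, adjusted p = 2e-06). The A20-RE libraries lay above all WT libraries for both genes. SLC2A1, the glucose transporter GLUT1, rose less, from 131 to 221 FPKM (log2 fold change 0.75). Members that did not pass were EGLN1, the main oxygen sensor of the pathway, at 0.08, ADM at 0.12, PFKFB3 at 0.12, ERO1A at 0.29, and DDIT4 at 0.86. An HRE core was in 17 of 21 matched hypoxia promoters (81.0%) and in 64.6% of the 9008 matched promoters. The share was as high or higher in lists that did not rise, at 91.3% for endoplasmic reticulum chaperones, 86.2% for ribosome biogenesis, and 84.7% for splicing factors, so it does not set the hypoxia list apart. The stretches below hold it before the start in ANGPTL4 and P4HA1, in capitals, where CACGT is ACGTG on the other strand.
ANGPTL4, chr19:8363905-8363955, plus strand: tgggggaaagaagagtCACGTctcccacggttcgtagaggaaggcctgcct
P4HA1, chr10:73096918-73096982, minus strand: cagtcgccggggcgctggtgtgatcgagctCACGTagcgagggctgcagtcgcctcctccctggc

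Glycolysis and lactate genes changed in part. Of 18 genes 10 rose, 5 past 2-fold, and 1 fell, with a median log2 fold change of 0.42. ENO2, the neuronal enolase isoenzyme that hypoxia also induces, was at 13, 15.3, and 16.5 FPKM in WT and 75.2, 72.2, and 81.6 FPKM in A20-RE (log2 fold change 2.35, adjusted p = 5.9e-06). The aldolase ALDOC rose from 19.1 to 93.4 FPKM, and GPI, which converts glucose 6-phosphate to fructose 6-phosphate, from 69 to 206 FPKM. ALDOA was listed at 1.52 and 7.87 FPKM, but 42.3% of it overlaps another gene on the same strand, and its values are uncertain. GAPDH at a log2 fold change of 0.25 (adjusted p = 0.29), ENO1 at 0.35, and TPI1, LDHB, and PGAM1 did not pass. Tricarboxylic acid cycle genes had 2 rises and 8 falls among 21, with a median of -0.17, and without A20-RE replicate 1 the falls numbered 5. DLAT, the acetyltransferase subunit of pyruvate dehydrogenase, fell the most, from 24.8, 22.8, and 22.3 FPKM to 6.77, 6.38, and 6.35 FPKM (log2 fold change -1.83, adjusted p = 6.1e-06), and fumarase, FH, fell by 1.03 on the log2 scale.

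**Figure D3:**
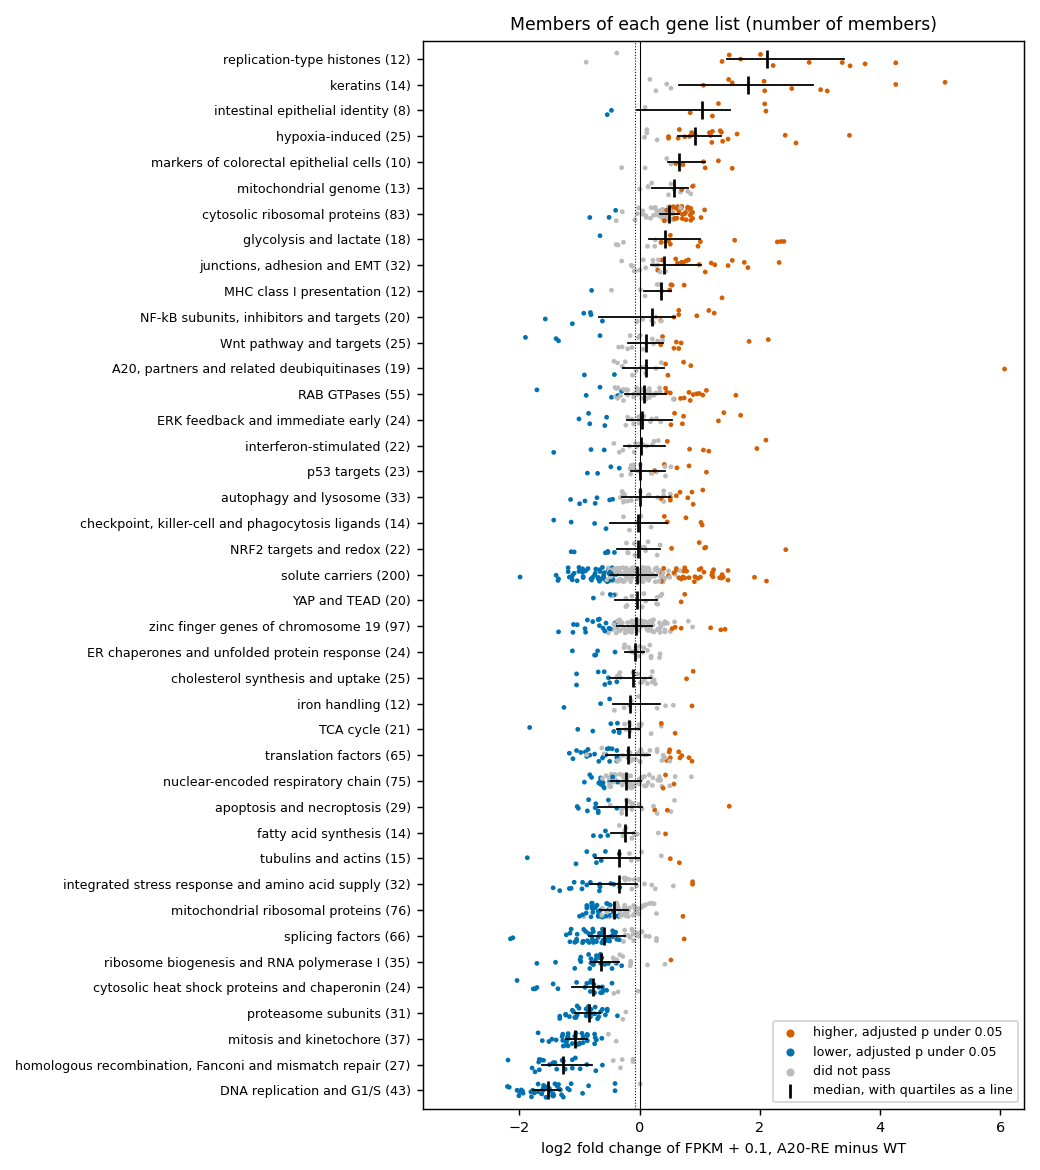
Log2 fold change (A20-RE minus WT) of each gene in the lists with at least 8 members, 1 row per list, with genes that passed the test higher or lower in colour and the others in grey. The tick marks each list's median, the line its quartiles, and the dotted line the median of all 10950 genes at -0.08, and the replication list lies farthest to the left at a median of -1.53.

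Genes of cytosolic protein folding and of the proteasome fell. Of 24 cytosolic heat shock protein and chaperonin genes 21 fell, 7 past 2-fold, and none rose, with a median log2 fold change of -0.78. With genes under 1 FPKM in either group left out, 20 of 23 fell, 6 past 2-fold. HSPA8, the constitutive HSP70, was at 523, 414, and 461 FPKM in WT and 135, 133, and 157 FPKM in A20-RE (log2 fold change -1.71, adjusted p = 3e-05). HSPH1, its nucleotide exchange factor, fell from 38.3 to 11.3 FPKM. The inducible pair HSPA1A and HSPA1B fell by 2.04 and 1.77 on the log2 scale, but they are near-identical copies whose reads can be split between them, and 36.5% of HSPA1B overlaps another gene. HSP90AB1, the constitutive cytosolic HSP90, fell from 1530 to 899 FPKM (log2 fold change -0.76, adjusted p = 0.0039), and did not pass with no filter on low values. Of 31 proteasome subunit genes included 29 fell, 12 past 2-fold, with a median of -0.85. PSMD11, of the 19S lid, was at 32.5, 29.2, and 32.5 FPKM in WT and 12, 12, and 13.2 FPKM in A20-RE (log2 fold change -1.33, adjusted p = 1.4e-05), and the ATPase gene PSMC3 also fell by 1.33. Endoplasmic reticulum chaperones showed less change, with 5 falls and no rise among 24, of which 19 did not pass, and a median of -0.08 equal to that of all 10950 genes. SDF2L1, a co-chaperone of the endoplasmic reticulum, fell from 67.9 to 30.6 FPKM. CALR, the calcium-binding chaperone calreticulin, was at 301, 335, and 383 FPKM in WT and 196, 189, and 216 FPKM in A20-RE (log2 fold change -0.75, adjusted p = 0.0015). Genes of the integrated stress response and amino acid supply had 2 rises and 16 falls among 32, with a median of -0.34. PSAT1 of serine synthesis fell from 90.8 to 33.4 FPKM and the glutamine transporter SLC1A5 from 102 to 44.9 FPKM, while ATF4, the transcription factor of the response, was at 151 and 150 FPKM.

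Genes that act on RNA and ribosomes did not move as a block. Of 66 splicing factor genes 47 fell and 1 rose, 11 fell past 2-fold, and the median log2 fold change was -0.6. HNRNPM, a regulator of alternative splicing, was at 113, 129, and 151 FPKM in WT and 29.8, 26.9, and 31.4 FPKM in A20-RE (log2 fold change -2.15, adjusted p = 1.1e-05). SRSF3 fell from 62 to 27.5 FPKM, and SRSF1, of which 56.6% overlaps another gene on the same strand, had a log2 fold change of -2.11. HNRNPA1 at 0.1 did not pass. Ribosome biogenesis and RNA polymerase I genes had 24 falls and 1 rise among 35 (median -0.65), with UTP20 of the small-subunit processome falling from 6.92 to 2.03 FPKM and POLR1A, the largest polymerase I subunit, from 11.9 to 5.99 FPKM. Cytosolic ribosomal protein genes went the other way, with 33 rises and 3 falls among 83 and a median of 0.48. The count of rises was 13 without A20-RE replicate 1 or without A20-RE replicate 3, and 21 with no filter on low values. RPS27 was at 314, 271, and 281 FPKM in WT and 546, 535, and 766 FPKM in A20-RE (log2 fold change 1.08, adjusted p = 0.0019). RPS2 at 0.32 did not pass, and many genes of this family have processed pseudogenes that can share their reads. Translation factors had 9 rises and 21 falls among 65. EIF5A, the hypusine-containing elongation factor, fell from 355 to 164 FPKM, and EEF1A1, which delivers aminoacyl-tRNA, rose from 1310 to 2410 FPKM (log2 fold change 0.87, adjusted p = 0.003) but did not pass with no filter on low values.

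For the mitochondrion, 34 of 76 mitochondrial ribosomal protein genes fell and 1 rose, with a median log2 fold change of -0.43, and the falls numbered 22 without A20-RE replicate 2. MRPL20 fell from 23.9 to 11.9 FPKM. Nuclear genes of the respiratory chain had 3 rises, 15 falls, and 57 that did not pass among 75 (median -0.22), and the falls numbered 7 without A20-RE replicate 1 or replicate 2. NDUFS3, a core subunit of complex I, fell from 19.3 to 10.1 FPKM and ATP5F1B, the catalytic beta subunit of ATP synthase, from 436 to 286 FPKM. Of the 13 genes of the mitochondrial genome itself 11 did not pass, and the list median was 0.57. MT-CYB (log2 fold change 0.88, adjusted p = 0.031) and MT-ND5 (0.7, adjusted p = 0.036) passed, but did not in 12 and 11 of the 21 alternatives, and neither passed when WT replicate 2 or 3 or any of the A20-RE replicates was left out.

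Of the keratins and of the junction genes that passed the test none fell. Of 55 listed keratins 14 were included. Among the 8 that were at 1 FPKM or more in both groups 4 rose, each past 2-fold, and none fell, with a median log2 fold change of 0.79. The other 6 were under 1 FPKM in WT, entered through their level in A20-RE, and all rose. KRT7, a simple-epithelium keratin, was at 2.32, 2.7, and 3.82 FPKM in WT and 25.5, 19.6, and 27.2 FPKM in A20-RE (log2 fold change 3.01, adjusted p = 1.4e-05). KRT16, a keratin of stressed and wounded squamous epithelium, was among the latter, at 0.394 and 4.2 FPKM. The abundant KRT19 rose from 434 to 903 FPKM (log2 fold change 1.06), and the pair that dominates simple epithelia, KRT8 at 0.52 and KRT18 at 0.45, did not pass. Keratins are close paralogs, and reads may be shared between them. Junction, adhesion, and epithelial-mesenchymal transition genes had 17 rises, 8 past 2-fold, and no fall among 32, with a median of 0.4. ITGB4, the integrin of hemidesmosomes, was at 48.5, 62, and 72.2 FPKM in WT and 302, 300, and 298 FPKM in A20-RE (log2 fold change 2.32, adjusted p = 1.2e-05). LAMB3, a chain of its ligand laminin-332, rose from 14.3 to 49.5 FPKM. The tight junction genes CLDN4 and TJP3 rose by 1.54 and 1.74 on the log2 scale. Of 29 genes of intestinal epithelial identity only 8 were included, and 5 rose and 2 fell. KLF4, a factor of terminal differentiation, was at 12.1, 15.9, and 17.5 FPKM in WT and 65, 62.2, and 66.3 FPKM in A20-RE (log2 fold change 2.1, adjusted p = 1.5e-05). ELF3, an epithelial ETS factor, rose from 7.96 to 19.7 FPKM, and KRT20, a marker of differentiated colonocytes that was under 1 FPKM in WT, from 0.782 to 3.62 FPKM. GATA6, a transcription factor of the gut epithelium, fell from 3.81 to 2.58 FPKM, and 1 of the falls was lost when WT replicate 1 or 2, A20-RE replicate 1 or 3, or replicate 1 of the libraries labelled A20-KO was left out. The lineage markers EPCAM at -0.3 and CDX2 at 0.09 did not pass.

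The Wnt list had 8 rises and 4 falls among 25 genes, with 2 and 3 past 2-fold, and the rises numbered 5 when any of WT replicate 1, WT replicate 2, A20-RE replicate 1, or A20-RE replicate 2 was left out. DKK1, a secreted antagonist of the Wnt co-receptors, was at 45.7, 48.2, and 49.6 FPKM in WT and 212, 206, and 216 FPKM in A20-RE (log2 fold change 2.14, adjusted p = 2.1e-06). NOTUM, a secreted enzyme that inactivates Wnt ligands, rose from 9.79 to 34.1 FPKM. AXIN2, a scaffold and common readout of beta-catenin activity, was at 9.8, 13, and 12.6 FPKM in WT and 2.86, 3.19, and 3.15 FPKM in A20-RE (log2 fold change -1.9, adjusted p = 1.7e-05), with 25.2% of the gene overlapped by another. SP5, another beta-catenin target, fell from 2.68 to 0.9 FPKM and entered through its level in WT. Secreted Wnt inhibitors thus stood on both sides, with DKK1 and NOTUM high and DKK4 low in A20-RE. In the ERK feedback and immediate early list 7 of 24 rose and 5 fell. These are 29.2% and 20.8%, against 18.5% and 26% of all 10950 genes, and the list median was 0.04. JUNB was at 26.8, 34.2, and 41.2 FPKM in WT and 113, 97.3, and 114 FPKM in A20-RE (log2 fold change 1.68), FOS rose from 3.19 to 8.57 FPKM, and FOSL1, a further AP-1 subunit, fell from 54.7 to 26.6 FPKM. Genes of YAP and TEAD signaling mostly did not pass (15 of 20).

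The NF-kB system, where A20 acts, moved in both directions. Of 35 listed subunits, inhibitors, and targets 20 were included, of which 7 rose, 6 fell, and 7 did not pass, with a median log2 fold change of 0.21. The rises were 35% and the falls 30%, against 18.5% and 26% of all 10950 genes. With genes under 1 FPKM in either group left out, 7 of 19 rose and 5 fell. The inhibitor NFKBIA was at 6.82, 8.97, and 10.7 FPKM in WT and 20.2, 18.3, and 23.6 FPKM in A20-RE (log2 fold change 1.24, adjusted p = 0.00055). BCL3, a nuclear IkB protein, rose from 4.65 to 10.2 FPKM. The subunit NFKB1 was at 7.15, 7.74, and 7.56 FPKM in WT and 3.51, 3.52, and 3.13 FPKM in A20-RE (log2 fold change -1.12, adjusted p = 0.00011). The groups lay apart for both, in opposite directions. NFKB2 rose from 32.2 to 50.4 FPKM, and the adhesion molecule ICAM1, a classical target, fell from 2.25 to 0.678 FPKM. ICAM1 entered through its level in WT. Among A20 itself, its partners, and related deubiquitinases, 5 of 19 rose and 2 fell, and the rises numbered 3 without A20-RE replicate 1. TNFAIP3 is 1 of these rises, was under 1 FPKM in WT, and entered through its level in A20-RE. Among the 18 genes at 1 FPKM or more in both groups 4 rose and 2 fell. TNIP1, an adaptor that binds A20, rose from 10 to 16.7 FPKM, the ubiquitin ligase ITCH rose from 12.8 to 23.1 FPKM, and TRAF2, a signal transducer of tumor necrosis factor receptors, fell from 8.03 to 4.1 FPKM.

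Interferon-stimulated genes were as divided, with 6 rises and 3 falls among 22 and a median of 0.02. These are 27.3% and 13.6%, against 18.5% higher and 26% lower for all 10950 genes. OASL, an oligoadenylate synthetase-like antiviral protein, was at 1.53, 1.35, and 1.5 FPKM in WT and 5.4, 5.74, and 6.77 FPKM in A20-RE (log2 fold change 1.95, adjusted p = 1.7e-05), whereas the related OAS3 fell from 8.68 to 3.21 FPKM. IRF7, the factor that amplifies type I interferon, rose from 4.13 to 9.09 FPKM. In class I antigen presentation 5 of 12 rose and 1 fell (median 0.36), and the rises numbered 3 without WT replicate 2, A20-RE replicate 1, or A20-RE replicate 3. B2M, the light chain, rose from 33.9 to 49.4 FPKM and HLA-E, a ligand of natural killer cell receptors, from 49.3 to 81.9 FPKM, while HLA-C at 0.34 did not pass, and HLA genes are close paralogs. Of 14 checkpoint, killer-cell, and phagocytosis ligands 5 rose (35.7%) and 4 fell (28.6%). CD47, the signal against phagocytosis, was at 7.49, 5.92, and 5.19 FPKM in WT and 12.4, 12.8, and 12.3 FPKM in A20-RE (log2 fold change 1.02, adjusted p = 0.00075). MICB, a stress ligand of the receptor NKG2D, was at 18.8, 18.7, and 18.7 FPKM in WT and 8.44, 8.14, and 8.73 FPKM in A20-RE (log2 fold change -1.14, adjusted p = 3e-05). The rises of this list numbered 3 when A20-RE replicates 1, 2, or 3, WT replicate 2, or any of the libraries labelled A20-KO was left out.

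Apoptosis and necroptosis genes had 3 rises (10.3%) and 10 falls (34.5%) among 29, with a median of -0.22. BMF, a BH3-only activator of apoptosis, rose from 0.542 to 1.71 FPKM and entered through its level in A20-RE. Among the 28 genes at 1 FPKM or more in both groups 2 rose, none past 2-fold, and 10 fell. APAF1, the apoptosome scaffold, fell from 4.36 to 2.07 FPKM, and MLKL, the executioner of necroptosis, from 2.58 to 1.22 FPKM. The p53 targets had 5 rises, 4 falls, 14 that did not pass, and a median of 0.01. These rises and falls are 21.7% and 17.4%, against 18.5% and 26% of all 10950 genes. GDF15, a secreted stress cytokine, was at 139 ± 37.8 FPKM in WT and 138 ± 18.1 FPKM in A20-RE (SD, n = 3), against 348 ± 40 FPKM in the libraries labelled A20-KO, and BAX, a pore-forming apoptosis protein, fell from 31.8 to 17.1 FPKM. Of the genes that the study followed, LCN2, an iron-binding protein of innate immunity, was at 3.83, 3.16, and 5.73 FPKM in WT and 2.03, 1.44, and 1.55 FPKM in A20-RE (log2 fold change -1.26, adjusted p = 0.0068). STC1, a secreted glycoprotein, was under the level of 1 FPKM, with 21, 20, and 22 reads in WT and 12, 18, and 12 reads in A20-RE (log2 fold change -0.33, adjusted p = 0.49), and KRT6A was likewise under it (log2 fold change -0.76, adjusted p = 0.1). GSK3B, a kinase of the Wnt and glycogen pathways, did not pass at 0.23.

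Among lists of lipid, redox, and metal genes, the NRF2 list passed in shares of 22.7% higher and 27.3% lower. These are near those of all 10950 genes (18.5% higher and 26% lower). Fatty acid synthesis (28.6% lower) and iron handling (25% lower) were near them for falls only, with 7.14% and 8.33% higher. The cholesterol list had 8% higher and 32% lower, and the metallothionein list of 6 genes 50% and 16.7%. Among 25 cholesterol genes 2 rose and 8 fell (median -0.11). SREBF2, the regulator of the pathway, rose from 27.2 to 50.2 FPKM. The NRF2 and redox list had 5 rises and 6 falls among 22, and the falls numbered 3 without A20-RE replicate 2. HMOX1, heme oxygenase, was at 7.82, 10.5, and 13.4 FPKM in WT and 56.9, 52, and 58.9 FPKM in A20-RE (log2 fold change 2.43, adjusted p = 3.1e-05), and GCLC of glutathione synthesis rose from 9.71 to 20.8 FPKM. SLC7A11, the cystine importer of the same system, fell from 3.93 to 1.8 FPKM and KEAP1, which targets NRF2 for degradation, from 27.3 to 12.2 FPKM. Of the metallothioneins, which bind zinc and copper and are close paralogs, 3 of 6 rose and 1 fell, and only 1 rose without WT replicate 2, WT replicate 3, A20-RE replicate 1, or A20-RE replicate 3. MT1E fell from 193 to 75.6 FPKM, whereas MT2A at 0.09 did not pass. Among autophagy and lysosome genes 9 rose and 7 fell of 33, with GABARAPL1 of the autophagosome membrane rising from 7.1 to 14.8 FPKM and the lysosomal calcium channel MCOLN1 falling from 7.05 to 3.68 FPKM. Of 200 solute carriers 39 rose and 57 fell, shares near those of all 10950 genes, and SLC45A1, a sugar transporter, had the largest change, a rise from 5.72 to 25 FPKM. Among RAB GTPases, which direct vesicle traffic, 14 of 55 rose and 6 fell, with 3 falls without A20-RE replicate 1 and 10 without WT replicate 1. RAB15, which entered through its level in WT, fell from 3.41 to 0.969 FPKM and RAB37 rose from 2.04 to 6.41 FPKM. Tubulins and actins had 2 rises and 8 falls among 15, and the falls numbered 5 without WT replicate 3, A20-RE replicate 1, or A20-RE replicate 2. TUBA1C, an alpha-tubulin, fell from 104 to 49.7 FPKM, while ACTG1 at 0.36 did not pass. Of the 97 zinc finger genes of chromosome 19 included, 73 did not pass, 6 rose, and 18 fell, the last of which numbered 9 or 10 without WT replicate 2, A20-RE replicate 1, or A20-RE replicate 3. Of these 97, 9 were under 1 FPKM in A20-RE, and among the 86 at 1 FPKM or more in both groups 5 rose and 12 fell. Fatty acid synthesis had 1 rise and 4 falls among 14, the falls numbering 2 without A20-RE replicate 1, with ACLY, which makes cytosolic acetyl-CoA, falling from 75.9 to 48.2 FPKM. Iron handling had 1 rise and 3 falls among 12, with TFRC, the transferrin receptor, falling from 68.5 to 43.6 FPKM.

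The A20-RE cells were made from A20-knockout cells, and the libraries labelled A20-KO were set beside these values with the WT libraries as the common reference. Relative to the WT mean on the log2 scale, the replication genes had medians of -0.93, -0.97, and -0.99 in the libraries labelled A20-KO, whereas the A20-RE medians were -1.54, -1.59, and -1.46. The hypoxia genes had medians of 0.45, 0.40, and 0.35 in the former and 0.92, 0.98, and 0.93 in the latter, and the mitosis genes -0.73, -0.70, and -0.76 against -1.16, -1.03, and -0.99. In these 3 lists the A20-RE libraries lay farther from WT than the libraries labelled A20-KO, with no overlap. Other lists differed from this. Histone genes, 4 of the 12 under 1 FPKM in WT, were at 2.01, 1.92, and 2.08 against 2.05, 2.11, and 2.19, and the ranges overlapped. Cholesterol genes were at 0.47, 0.31, and 0.44 in the libraries labelled A20-KO but at -0.2, -0.15, and -0.09 in A20-RE, and the ERK and immediate early genes at 0.36, 0.36, and 0.39 but at 0.06, 0.02, and 0.12, so for these lists the former lay farther from WT. Class I presentation genes were at 0.44, 0.44, and 0.58 against 0.36, 0.23, and 0.51, with overlap. Over the 643 genes called higher in A20-RE the median log2 difference was 1.05 from WT to the libraries labelled A20-KO and 0.4 from those to A20-RE, and over the 598 called lower it was -0.77 and -0.51. These medians are descriptions, since the genes were chosen on the A20-RE and WT libraries that enter them. HIST1H1C had log2 fold changes of 3.38 and 0.38 in these steps (adjusted p = 0.22 for the latter), KRT13 of 4.44 and 0.64, KRT14 of 0.9 and 3.35, NDRG1 of 1.32 and 2.17, and DKK4 of -0.75 and -2.71, so single genes made most of their difference from WT in either step.

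**Figure D4:**
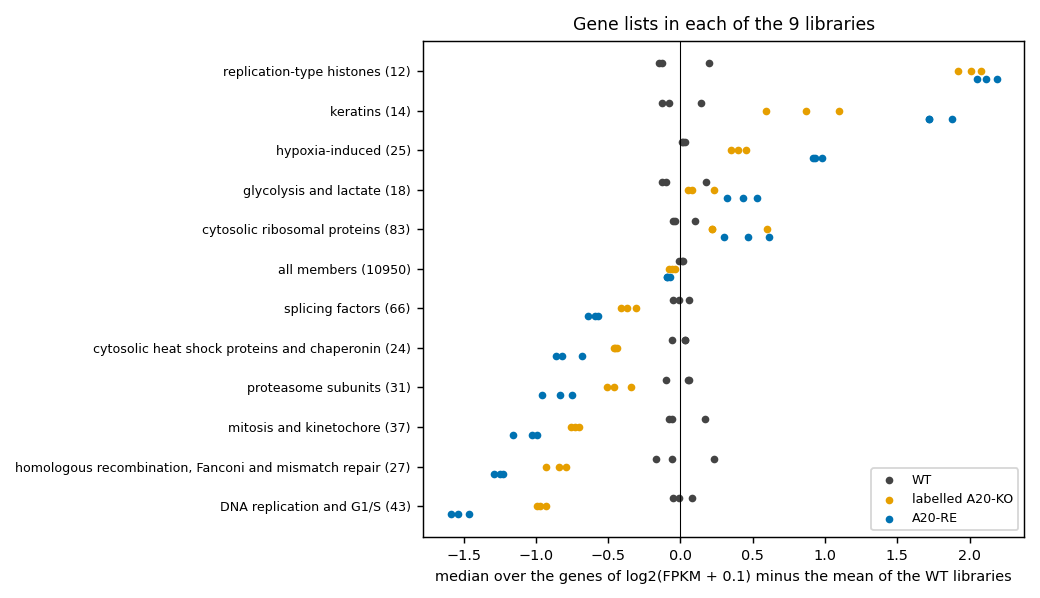
Median log2 difference from the WT mean (x axis) of 11 gene lists and of all 10950 genes in each of the 9 libraries, with points for libraries coloured by group. In the replication list the A20-RE points lie between -1.59 and -1.46, to the left of the libraries labelled A20-KO, while the histone points of these groups lie close together near 2.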

How the data were processed

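Poly(A)-selected RNA of 3 groups of HCT116 cells was sequenced in paired reads of 150 bp, per the study's methods. The authors aligned and counted the reads (the submitters' processing notes name HISAT2 2.0.5 and featureCounts 1.5.0-p3, and the strand setting is not given in the sources used here) and deposited FPKM per gene for 9 libraries. Gene coordinates matched GENCODE 29 on GRCh38 for 100.0% of genes. Whole reads were recovered from the FPKM for 100.0% of values (tolerance 0.02), giving at least 23406222 reads per library. The floor of 3 reads covers counting error only. The 95% confidence intervals and SE came from limma and measure the spread between these libraries. The 21636 genes with a mean of at least 0.1 FPKM over the 9 libraries were tested after a log2(FPKM + 0.1) transformation. The test was that of limma 3.58.1 (R 4.3.3), fitted to the 3 groups at once with trended variances and tested on simulated data. This scale understates the change of low genes. Exact permutation tests of 3 libraries against 3 cannot go below p = 0.1. The replicate numbers were not used to pair the libraries in the main fit.

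Named genes were the markers, the 4 largest changes and a member of high level in each of 43 lists, the 10 largest rises and falls, and genes that the study followed. Further members named where few did not pass, and the families in the closing section, were chosen after their values were seen. The members and the lists were chosen with earlier results of these data known. The alternatives were other pseudocounts, filters, scalings, designs, limma-voom on the recovered reads, GC correction, and each library left out. Counts over list members at 1 FPKM or more in each group were added after seeing the data. Promoter sequences came from RefSeq (GRCh38.p14). Where genes overlap on the opposite strand, their reads cannot be told apart.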

Additional observations from a re-analysis of the deposited data

How the results depend on the processing

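With a pseudocount of 1 in place of 0.1, 397 genes were called higher and 391 lower, and with an absolute log2 fold change above 2 the counts were 97 and 23. In the other alternatives both counts stayed within 1.5 times of 643 and 598. The median-of-ratios scaling, which is among the 21 alternatives, had a factor of 1 in every library. It therefore repeated the main fit and could not move a count. Leaving out each library in turn gave 574 to 721 called higher and 583 to 653 called lower. With limma-voom on the recovered reads 604 were called higher and 773 lower, and with a correction for GC content 563 and 616. Of 258 named genes tested 230 passed, and 209 of these kept their direction and their side of the threshold in all 21 alternatives. GDF15 went from 0.01 to -0.23 under the GC correction with the replicate block, and the cause was not tested. Counts by list stayed within 1.5 times in 1610 cases and moved further in 196. Counts of 5 or fewer in a list moved by up to 3 genes when 1 library was left out.

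The deviations from the group means correlated at -0.03, 0.03, and 0.04 between WT and A20-RE libraries of equal number, and 2 of the 3 A20-RE libraries correlated best with a WT library of another number. The highest values over all groups were those of A20-KO 3 with A20-RE 3 (0.12) and WT 3 with A20-KO 3 (0.1). Whether libraries of equal number share an effect was not tested. The replicate block gave 645 genes called higher and 597 called lower, and 2270 and 3174 that passed.

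With 3 libraries per group the precision rests on the pooled spread. DKK4, with 2 to 4 reads in A20-RE, and KRT14, with 5 to 9 reads in WT, rest on few reads, so the size of their changes is imprecise.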

Other observations

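The groups below were noticed after the values were seen, and their counts are descriptions with no test of the group. HOXB genes, transcription factors of body-axis patterning that lie in 1 cluster on chromosome 17, had 8 members with a mean of at least 1 FPKM, of which 7 fell and 5 fell past 2-fold, with a median log2 fold change of -1.43. HOXB5 was at 11.2, 10.1, and 12.1 FPKM in WT and 3.08, 2.72, and 3.5 FPKM in A20-RE (log2 fold change -1.81, adjusted p = 7.4e-05 from limma). HOXB6 fell by 1.59, HOXB3 by 1.27, HOXB7 by 0.92, and HOXB9 by 0.73 on the log2 scale, whereas HOXB13, at the far end of the cluster, was at 3.85 and 3.5 FPKM and did not pass (log2 fold change -0.13). HOXB8 and HOXB4 fell the most. In the libraries labelled A20-KO, HOXB8 was at 0.943, 0.754, and 1.07 FPKM, which overlaps with A20-RE. Over all HOX genes 11 of 21 fell and none rose.

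S100 genes, which encode small calcium-binding proteins, had 8 rises, 4 past 2-fold, and no fall among 10. S100A14 was at 65.5, 88.7, and 100 FPKM in WT and 266, 250, and 305 FPKM in A20-RE (log2 fold change 1.71, adjusted p = 0.00014 from limma). Of 13 KLF genes, zinc finger factors of epithelial differentiation and growth, 11 rose and none fell, with a median of 0.85. KLF13 rose from 11.9 to 26.7 FPKM and KLF5, a factor of intestinal crypt cells, from 26.1 to 46.6 FPKM, while KLF6 at -0.27 did not pass. In the group of ID, SMAD, and TGF-beta genes 7 of 15 rose, each past 2-fold, and none fell. ID2, an inhibitor of basic helix-loop-helix factors, was at 38.6, 37.9, and 35.9 FPKM in WT and 135, 125, and 147 FPKM in A20-RE (log2 fold change 1.85, limma adjusted p = 5.5e-06). The inhibitory SMADs rose as well, SMAD6 by 1.43 and SMAD7 by 1.23 on the log2 scale, and the shared partner SMAD4 at 0.09 did not pass.

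Regulators of the cell cycle moved in both directions. Of those named here, E2F1 and E2F2 are also in the replication list and CDKN1A is also in the list of p53 targets. E2F1 fell from 23.5 to 9.41 FPKM, E2F2 from 11 to 3.51 FPKM, and E2F8 from 7.61 to 1.89 FPKM, and 6 of 8 E2F genes fell with none that rose. Of the inhibitors of cyclin-dependent kinases, CDKN1C (p57) was at 4.52, 5.98, and 7.97 FPKM in WT and 20.6, 18.5, and 21.9 FPKM in A20-RE (log2 fold change 1.74, adjusted p = 0.00019 from limma), and CDKN2B rose by 1.32 and CDKN1A by 0.62 on the log2 scale. CDKN2A fell from 11.6 to 5.14 FPKM, and CDKN1B at 0.16 did not pass. Among Wnt ligands 6 of 9 rose, with WNT7B at 3.95, 5.43, and 6.17 FPKM in WT and 14.4, 14.1, and 13.8 FPKM in A20-RE (log2 fold change 1.45, adjusted p = 0.00016 from limma). All 4 cytochrome P450 4F genes included rose, with a median log2 fold change of 2.64, and they are close paralogs that may share reads.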
